A study of Homo sapiens with 18 samples.

Results

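The genes described here are the chromatin remodellers outside the BAF family: the CHD, ISWI and INO80 motors, the NuRD complex, and further SNF2 motors, with some of their partner subunits. They are 42 listed symbols, named without a threshold on their counts but with earlier results of these data known, and all 42 were found among the 60707 genes read from the count table. Of these, 41 passed the filter on low counts, which 16474 genes of the series passed. SMARCA1, an ISWI motor, did not pass: it held 7 counts over all 18 libraries, and no fold change is given for it.

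Chromatin remodellers use the energy of ATP to slide, evict, exchange or space nucleosomes, and each family is built around a SNF2-type motor. BAF, the family of SMARCA4, opens chromatin. ISWI complexes space nucleosomes, INO80 and SRCAP type complexes exchange the histone variant H2A.Z, and NuRD joins a CHD motor to histone deacetylases and is known in B cells as a co-repressor that works with BCL6. The CHD motors read histone tails through paired chromodomains.

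The RNA-seq libraries, made after removal of ribosomal RNA, come from Raji, an established B cell line from a Burkitt lymphoma in which SMARCA4 (also called BRG1) could be degraded through an auxin-inducible degron. Cells with low GFP and cells with high GFP were taken at each of 24, 48 and 72 h, which makes 6 groups of 3 libraries. Every sample carries the genotype label Smarca4+/+. The sources used here do not say what the GFP signal marks, how cells were sorted, from which event the hours count or whether the line is 1 clone. The column names of the unnumbered library set, described below, join GFP to BRG1 but do not explain the link. Values are therefore set out by GFP level alone, and nothing is said of which cells had lost SMARCA4 protein. The label of each library set also stands in the column names, as an unnumbered set, set 1 and set 2, and values of 3 libraries are given in that order. Whether these are separate cultures is not labelled; p-values then cover only library-to-library spread, which may be technical.

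Libraries held 27257876 to 55419458 counts in genes. SMARCA4 mRNA averaged 589.6 ± 21.4 CPM in GFP low cells and 418 ± 9.39 CPM in GFP high cells at 24 h (SD, n = 3 each), and its log2 fold change was 0.50 at 24 h, 0.11 at 48 h and 0.20 at 72 h; a degron acts on the protein, so the mRNA is no check of depletion. The 7 B cell markers summed to 2263 to 2768 CPM per library, and 7 of 7 passed the filter. The summed levels of several lists moved with the groups. At 24 h the 8 T cell markers, led by LCK, summed to 9.50 to 11.2 CPM in GFP low and 21.9 to 23.9 CPM in GFP high cells, with CD8A at 0 in all libraries, and 6 of the 8 passed the filter. Their sum was also lower in every GFP low library at 48 h (15.7 to 16.2 against 22.8 to 24.6 CPM) and 72 h (18.1 to 19.9 against 32.6 to 33.6 CPM). The B cell sum was 2433 to 2534 CPM in GFP low and 2678 to 2762 CPM in GFP high cells at 24 h. It was also lower in every GFP low library at 48 h (2263 to 2350 against 2590 to 2699 CPM) and 72 h (2345 to 2466 against 2688 to 2768 CPM). Mitochondrial genes took 2.67% to 4.62% of counts. Their share was below that of GFP high cells in every GFP low library at 24 h (3.48% to 3.64% against 4.27% to 4.62%) and 48 h, and above it at 72 h (3.81% to 3.98% against 2.67% to 2.79%). At 24 h the 6 myeloid markers (3 passed the filter, FCGR3A at 0) summed to 2.13 to 2.44 CPM in GFP low and 0.762 to 0.991 CPM in GFP high cells, and overlapped at 48 and 72 h. The 4 fibroblast markers, led by COL1A1, of which 2 passed, summed to 7.996 to 9.98 CPM in GFP low and 5.70 to 6.16 CPM in GFP high cells at 24 h, and to 2.05 to 2.64 CPM in GFP low and 3.05 to 3.38 CPM in GFP high cells at 72 h. The 5 epithelial markers, of which 0 passed, summed to at most 0.131 CPM. The part of any of these in the results below was not tested. In bulk RNA, fewer cells of a type and less RNA per cell cannot be told apart.

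Promoter stretches are shown for genes of each direction at 24 h, the time with most changes. EP400 and SMARCAL1 rose and RBBP7 and RUVBL2 fell in GFP low cells. They were chosen after the values were seen, as the members with the largest change in each direction whose window holds a motif that was searched for. Of the 42 genes, 36 have a promoter window in the RefSeq table used here (GRCh38.p14). The 250 bases before a RefSeq start are printed 5′ to 3′ on the strand of the gene, with the match in capitals: CTTCCGG, the other strand of the ETS motif, for EP400 (chr12:131949692-131949941, plus strand), CCAAT for SMARCAL1 (chr2:216412515-216412764, plus strand), and ATTGG, its other strand, for RBBP7 (chrX:16869864-16870113, minus strand) and RUVBL2 (chr19:48993198-48993447, plus strand). SMARCAL1, RBBP7 and RUVBL2 have 2 RefSeq windows each, and the one shown holds the most motifs or, where equal, has the lower coordinate. The windows of SMARCAL1 and RBBP7 lie before a downstream start, with all 250 bases inside the gene as the count table bounds it; those of EP400 and RUVBL2 lie outside it.
EP400: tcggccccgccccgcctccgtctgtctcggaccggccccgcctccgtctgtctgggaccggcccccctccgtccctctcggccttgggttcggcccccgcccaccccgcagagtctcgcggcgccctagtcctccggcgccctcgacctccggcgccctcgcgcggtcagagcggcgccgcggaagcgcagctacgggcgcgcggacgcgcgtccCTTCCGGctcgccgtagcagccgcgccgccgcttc
SMARCAL1: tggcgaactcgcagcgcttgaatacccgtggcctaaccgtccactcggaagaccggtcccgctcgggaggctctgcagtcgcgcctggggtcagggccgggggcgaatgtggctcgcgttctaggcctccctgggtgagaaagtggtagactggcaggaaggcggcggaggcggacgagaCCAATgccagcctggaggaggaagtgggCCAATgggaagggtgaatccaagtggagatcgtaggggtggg
RBBP7: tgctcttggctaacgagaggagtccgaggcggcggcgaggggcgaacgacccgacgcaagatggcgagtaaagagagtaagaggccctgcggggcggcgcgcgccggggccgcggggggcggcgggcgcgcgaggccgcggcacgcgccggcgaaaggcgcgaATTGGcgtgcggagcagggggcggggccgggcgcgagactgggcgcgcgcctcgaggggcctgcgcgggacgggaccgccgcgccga
RUVBL2: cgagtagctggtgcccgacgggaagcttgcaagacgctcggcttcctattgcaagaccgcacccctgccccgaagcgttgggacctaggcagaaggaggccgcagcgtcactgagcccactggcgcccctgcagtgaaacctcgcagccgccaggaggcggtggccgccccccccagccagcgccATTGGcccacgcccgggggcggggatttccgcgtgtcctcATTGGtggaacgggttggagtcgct

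The motifs searched for on both strands over each whole window were the CCAAT box (CCAAT), an ETS site (CCGGAAG), the E-box (CACGTG), and longer NRF1 and YY1 sites named here without letters, of which no motif contains another. The 36 members have 57 windows, and a gene with several starts has several chances of a match, so shares are given per gene and per window. CCAAT was in at least 1 window of 16 of the 36 members (44.4%) and of 37.0% of 27305 genes with a window, or in 40.4% of the members' windows and 32.0% of 34943 windows of all genes. It stood in 8 of 19 members that were higher at 24 h (BAZ1B, CHD1, CHD8, CHD9, GATAD2B, HLTF, SMARCAD1 and SMARCAL1) and in 5 of 10 that were lower (HDAC1, RBBP4, RBBP7, RUVBL1 and RUVBL2), so the same letters occur in windows of genes that moved in opposite directions. The ETS letters were in 8 members and 10.2% of all genes, or 15.8% of the members' windows and 8.48% of all windows. The E-box was in 3 members and 7.73% of all genes, or 5.26% and 6.32% of windows. The NRF1 and YY1 sites were in 0 members with a window, and in 1.28% and 0.304% of all genes. A match is a description of the letters and shows no binding.

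Levels were compared between genes per kilobase of summed exon length, on the scale of CPM, the count of a gene relative to its library's TMM-scaled total. The highest of the 42 were NuRD subunits or ISWI partners: HDAC1 with a mean over 18 libraries of 74.3 CPM per kb, BAZ1B with 67.3, RBBP4 with 58.2 and MTA2 with 54.2 CPM per kb. SMARCA5, the ISWI motor of most cell types, was the highest motor at 46.5 CPM per kb, against 0.00196 CPM per kb for its paralog SMARCA1. Among CHD motors the order was CHD3 at 36.4, CHD8 at 17.5, CHD1 at 14.8, CHD7 at 12.5, CHD9 at 6.49, CHD2 at 5.77 and CHD6 at 4.81 CPM per kb. CHD5, a NuRD motor known mainly from neurons, was at 0.0897 CPM per kb. In all, 38 of the 42 were at 1 CPM per kb or more.

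Per the table's own coordinates (hg38, per the submitters' processing notes), CHD2 (ENSG00000173575.22) spans chr15:92900189-93027996, BPTF (ENSG00000171634.18) spans chr17:67825503-67984378, and CHD4 (ENSG00000111642.16) spans chr12:6570082-6614524. The values are summed over all exons of each gene.

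Some levels and fold changes rest on part of a gene. By the exon coordinates deposited with the counts, other genes on the same strand cover 46.9% of the exon bases of CHD4. They cover 74.3% of SRCAP, 63.2% of CHD1L and 76.0% of INO80B. The gene with the largest overlap with each of them held at most 0.0341 CPM on average in any group. Levels of further overlapping genes, such as TMEM265 at SRCAP, were not taken. How reads in shared exons were counted is not known here, so the levels of these 4 genes are not ranked against the others: CHD4 was at 4.55, SRCAP at 1.05, CHD1L at 0.870 and INO80B at 0.316 CPM per kb. Genes on the other strand cover 29.8% of the exon bases of HLTF and 22.8% of RBBP4. The strand setting and the counting of reads that map to several places are also not given, which bears on genes with near-identical copies such as RBBP4 and the histone genes.

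At 24 h most motors among the 42 genes were higher in GFP low cells, while partner subunits moved in both directions. Of the 41 tested members, 24 were higher and 10 lower at an adjusted p under 0.05 (edgeR quasi-likelihood test, Benjamini-Hochberg over all tested genes), while 57.9% of all tested genes were called at this time, 29.3% higher and 28.5% lower. The 20 tested motors held 16 that were higher and 0 lower, with a median log2 fold change of 0.38 (0 lower also at an unadjusted p under 0.05 and by DESeq2). The 4 that were not called were CHD4 (0.0065 ± 0.035), CHD5 (0.17 ± 0.25), CHD1L (0.29 ± 0.12, called higher with upper-quartile scaling, with a filter of 1 CPM on the mean, and with the library set as a block, where 64.0% of all tested genes were called, 32.2% higher and 31.8% lower) and ZRANB3 (-0.045 ± 0.045). The 21 partner subunits, with which the ATPases RUVBL1 and RUVBL2 are counted because they act as a scaffold, held 8 that were higher and 10 lower, with a median of -0.15. Of 10 further genes of the SNF2 group outside the 42, given with the listed partners below, 5 were higher and 2 lower. The median of all tested genes was 0.031. Upper-quartile scaling raised it to 0.099 and moved 5 called values by over 1.5 times, BAZ1A and HLTF away from 0 and MBD2, MTA2 and MTA3 towards it, with no call lost. The 3 GFP low and 3 GFP high libraries did not overlap in 36 members, against 61.8% of all tested genes.

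**Figure D1:**
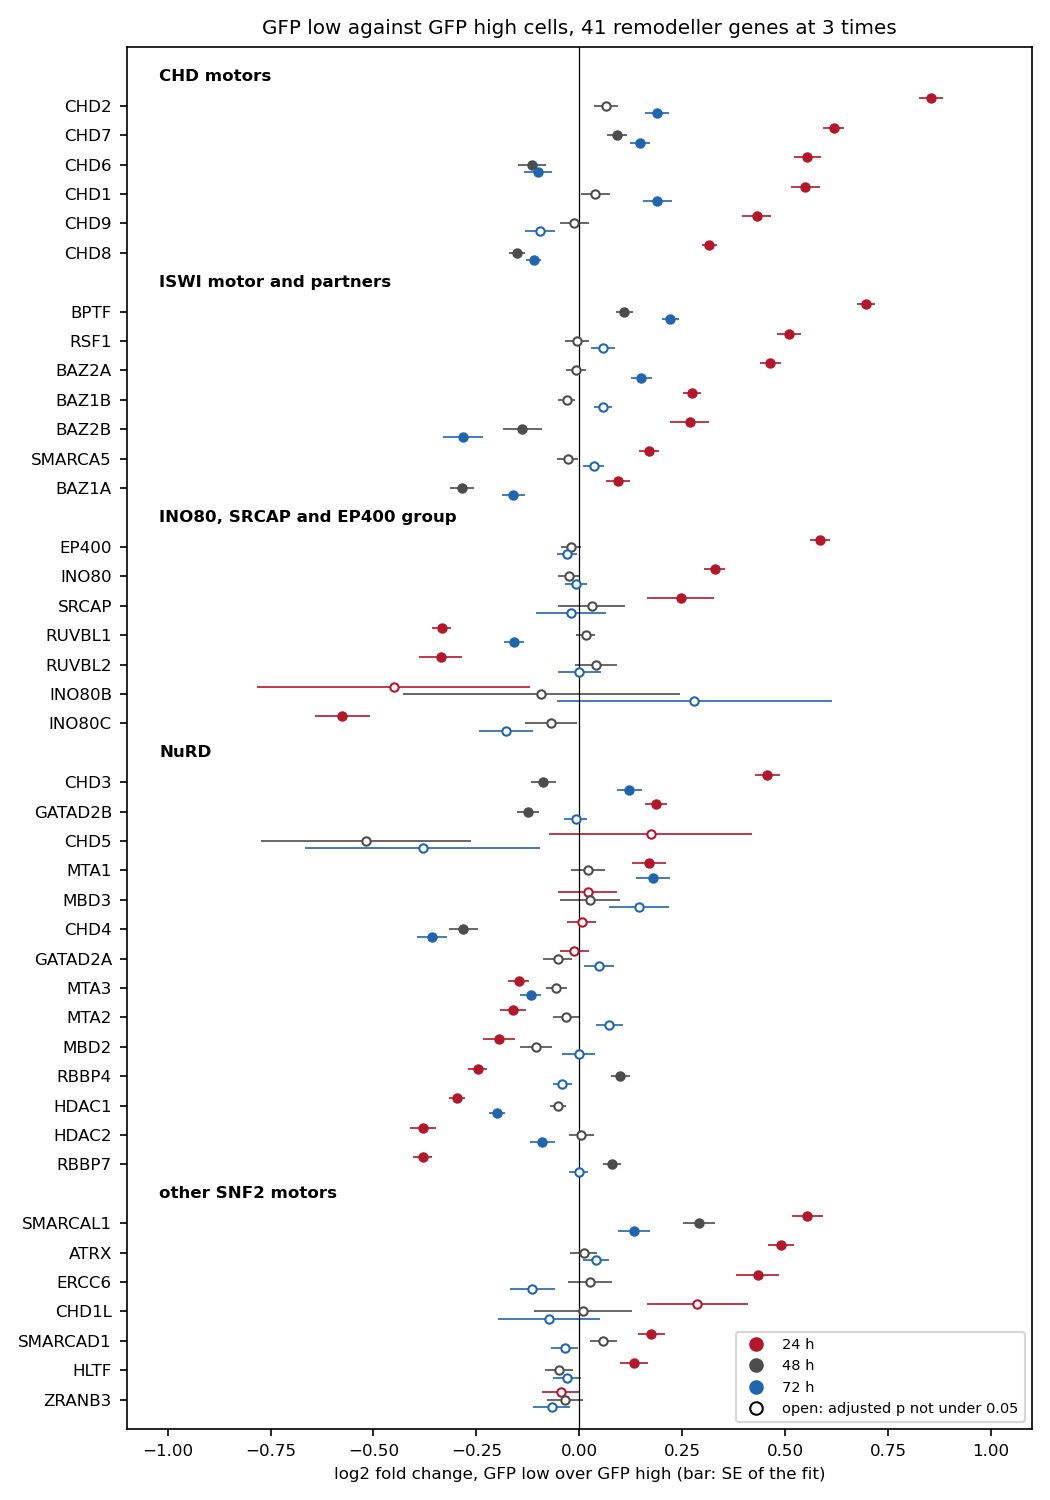
Log2 fold change of GFP low over GFP high cells (horizontal axis, bar: SE of the edgeR fit) for 41 remodeller genes at 24 h (red), 48 h (grey) and 72 h (blue), by family; open symbols did not pass an adjusted p of 0.05. At 24 h all 6 CHD motors lie between 0.32 and 0.85, and 7 of 11 NuRD subunits other than the CHD motors were called lower, while most 48 and 72 h points lie near 0. Over all tested genes, 29.3% were called higher and 28.5% lower at 24 h.

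All 6 CHD motors outside NuRD rose at 24 h, against 29.3% of all tested genes, with a median log2 fold change of 0.55. CHD2, a motor tied to histone variant H3.3 deposition, held 145, 136 and 136 CPM in GFP low cells, against 76.3, 77.8 and 76.4 CPM in GFP high cells at 24 h. The lowest GFP low library stood far above the highest GFP high one (log2 fold change 0.85 ± 0.029, adjusted p = 2.47e-16). CHD7, the motor mutated in CHARGE syndrome, held 266, 260.4 and 259 CPM in GFP low cells, against 171, 170.3 and 170.1 CPM in GFP high cells. CHD7 had a log2 fold change of 0.62 ± 0.025 (adjusted p = 3.39e-15). CHD1, which follows elongating RNA polymerase and binds methylated H3K4, held 215, 210.0 and 199 CPM in GFP low cells, against 147, 143 and 137 CPM in GFP high cells. For CHD1 the log2 fold change was 0.55 ± 0.035 (adjusted p = 8.17e-12). CHD6 held 92.6, 92.8 and 87.7 CPM in GFP low cells, against 63.7, 61.0 and 61.4 CPM in GFP high cells. CHD6 had a log2 fold change of 0.55 ± 0.033 (adjusted p = 2.93e-12). The groups did not overlap in any of these motors. CHD8, a motor known for binding beta-catenin, averaged 446 ± 4.15 CPM in GFP low cells and 358 ± 2.47 CPM in GFP high cells, and CHD9 averaged 132 ± 2.54 CPM in GFP low cells and 98.0 ± 5.52 CPM in GFP high cells (SD, n = 3 each), with log2 fold changes of 0.32 ± 0.018 and 0.43 ± 0.035. With the trend on exon length removed, all 6 stayed higher, at 0.62 for CHD2, 0.39 for CHD7, 0.37 for CHD1, 0.34 for CHD6, 0.20 for CHD9 and 0.063 for CHD8.

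At the later times the CHD motors moved in different directions. At 48 h, CHD2 held 92.9, 93.6 and 89.3 CPM in GFP low cells, against 89.1, 87.6 and 86.9 CPM in GFP high cells, which did not pass the test (log2 fold change 0.065 ± 0.029, adjusted p = 0.119), although the groups still did not overlap. At 72 h, CHD2 held 100.4, 105 and 101 CPM in GFP low cells, against 88.4, 89.3 and 90.7 CPM in GFP high cells. For CHD2 the log2 fold change was 0.19 ± 0.029 (adjusted p = 4.62e-05). CHD1 held 149, 147 and 149.7 CPM in GFP low cells, against 132, 133 and 126 CPM in GFP high cells. CHD1 had a log2 fold change of 0.19 ± 0.035 (adjusted p = 0.000335). Both were higher again in GFP low cells, and the difference was smaller than at 24 h by 0.67 ± 0.041 for CHD2 and 0.36 ± 0.050 for CHD1 on the log2 scale (adjusted p = 1.69e-11 and 3.8e-06). CHD7 and its close relative CHD8 moved apart. CHD7 was higher at 48 h, at 231, 225 and 225 CPM in GFP low cells, against 215, 208 and 216 CPM in GFP high cells. For CHD7 the log2 fold change was 0.092 ± 0.024 (adjusted p = 0.00817). At 72 h CHD7 held 217, 211 and 209 CPM in GFP low cells, against 198, 191 and 186 CPM in GFP high cells. CHD7 had a log2 fold change of 0.15 ± 0.025 (adjusted p = 0.00011). CHD8 was lower at 48 h, at 348, 339 and 343 CPM in GFP low cells, against 384, 382 and 378 CPM in GFP high cells. For CHD8 the log2 fold change was -0.15 ± 0.019 (adjusted p = 2.37e-06). At 72 h CHD8 held 328, 322 and 325 CPM in GFP low cells, against 358, 347 and 347 CPM in GFP high cells. CHD8 had a log2 fold change of -0.11 ± 0.019 (adjusted p = 0.000108). In all of these the 3 and 3 libraries did not overlap. CHD6 was also lower, at 58.7, 61.8 and 60.5 CPM in GFP low cells, against 66.2, 64.5 and 65.2 CPM in GFP high cells at 48 h. For CHD6 the log2 fold change was -0.11 ± 0.034 (adjusted p = 0.0159). At 72 h CHD6 held 63.2, 58.0 and 61.3 CPM in GFP low cells, against 65.8, 63.8 and 66.2 CPM in GFP high cells. CHD6 had a log2 fold change of -0.10 ± 0.034 (adjusted p = 0.0317). Each CHD6 call was lost in 4 of 6 fits that left out 1 library, with adjusted p up to 0.122 at 48 h and 0.21 at 72 h, and without a filter on low counts. The CHD7 call at 48 h was lost without the GFP high library of set 1 (log2 fold change 0.074, adjusted p = 0.0603). CHD9 was not called at 48 h (-0.012 ± 0.035) or 72 h (-0.095 ± 0.036), and was called lower at 72 h by DESeq2 and with the library set as a block.

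**Figure D2:**
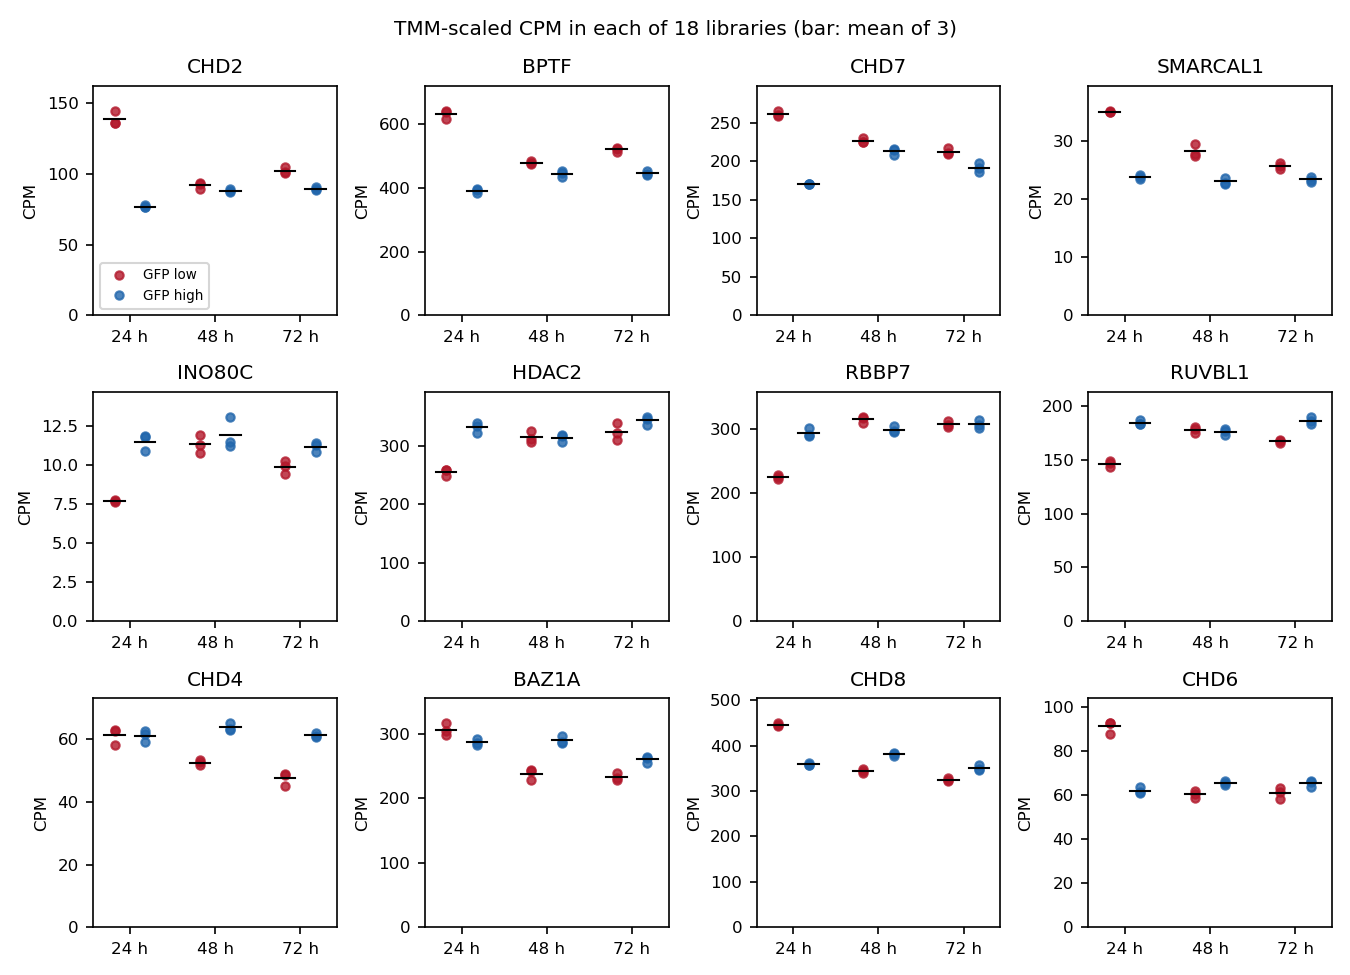
TMM-scaled CPM (vertical axes, each from 0) of 12 remodeller genes in each of 18 libraries at 24, 48 and 72 h, with GFP low in red left of GFP high in blue; bars are means of 3 libraries. CHD2 stands at 136 to 145 CPM in GFP low and 76.3 to 77.8 CPM in GFP high cells at 24 h, and CHD4 falls below GFP high cells at 48 and 72 h but not at 24 h.

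All 7 tested genes of the ISWI group rose at 24 h, against 29.3% of all tested genes, with a median log2 fold change of 0.27. BPTF, the large subunit of NURF that reads methylated H3K4, held 641, 638 and 616 CPM in GFP low cells, against 392, 396 and 382 CPM in GFP high cells. For BPTF the log2 fold change was 0.70 ± 0.021 (adjusted p = 4.16e-17). SMARCA5, the motor itself, averaged 426 ± 7.88 CPM in GFP low cells and 379 ± 10.7 CPM in GFP high cells (SD, n = 3 each, log2 fold change 0.17 ± 0.025, adjusted p = 3.77e-06). RSF1, the SMARCA5 partner of the RSF complex, averaged 183 ± 3.36 CPM in GFP low cells and 129 ± 4.43 CPM in GFP high cells and BAZ2A, its partner in NoRC, which silences ribosomal DNA, 281 ± 8.94 CPM in GFP low cells and 204 ± 5.05 CPM in GFP high cells. Their log2 fold changes were 0.51 ± 0.029 and 0.46 ± 0.025, and the groups did not overlap in any of these 4 genes. BAZ1B, the partner in WICH, averaged 559 ± 12.9 CPM in GFP low cells and 462 ± 6.45 CPM in GFP high cells (log2 fold change 0.27 ± 0.021). BAZ2B held 27.8, 28.3 and 28.3 CPM in GFP low cells, against 24.0, 23.6 and 22.6 CPM in GFP high cells. BAZ2B had a log2 fold change of 0.27 ± 0.047 (adjusted p = 4.37e-05). BAZ1A, the partner in ACF and CHRAC, held 317, 304 and 298 CPM in GFP low cells, against 292, 283 and 286 CPM in GFP high cells. For BAZ1A the log2 fold change was 0.094 ± 0.028 (adjusted p = 0.00708). BAZ1A had the smallest difference of the group, and it was not called without the GFP low library of the unnumbered set (log2 fold change 0.067, adjusted p = 0.0639). With the trend on exon length removed, BPTF (0.48), RSF1 (0.29), BAZ2A (0.28) and BAZ1B (0.18) stayed higher, whereas SMARCA5 (0.045, adjusted p = 0.14), BAZ2B (0.018, adjusted p = 0.754) and BAZ1A (-0.018, adjusted p = 0.632) no longer passed.

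At later times the ISWI partners went separate ways while their motor did not pass the test. SMARCA5 averaged 366 ± 6.09 CPM in GFP low cells and 373 ± 9.44 CPM in GFP high cells at 48 h (-0.028 ± 0.025) and 369 ± 6.85 CPM in GFP low cells and 360.0 ± 6.59 CPM in GFP high cells at 72 h (0.035 ± 0.025). BPTF was higher at both times, at 483, 479 and 475 CPM in GFP low cells, against 452, 446 and 433 CPM in GFP high cells at 48 h. BPTF had a log2 fold change of 0.11 ± 0.021 (adjusted p = 0.000538). At 72 h BPTF held 524, 522 and 513 CPM in GFP low cells, against 453, 444 and 440.2 CPM in GFP high cells. For BPTF the log2 fold change was 0.22 ± 0.021 (adjusted p = 6.39e-08). BPTF thus was higher at all 3 times, with no overlap of the libraries. BAZ1A was lower, at 243, 243 and 229 CPM in GFP low cells, against 297, 288 and 285 CPM in GFP high cells at 48 h. BAZ1A had a log2 fold change of -0.28 ± 0.029 (adjusted p = 1.49e-07). At 72 h BAZ1A held 239.5, 232 and 228 CPM in GFP low cells, against 263, 264 and 255 CPM in GFP high cells. For BAZ1A the log2 fold change was -0.16 ± 0.029 (adjusted p = 0.000226). At 48 h it showed the lowest log2 fold change among called members. BAZ2A was higher at 72 h, at 231, 233 and 233 CPM in GFP low cells, against 208, 209.6 and 209.8 CPM in GFP high cells. BAZ2A had a log2 fold change of 0.15 ± 0.025 (adjusted p = 0.000103). BAZ2B was lower at 48 h, at 22.7, 22.7 and 21.8 CPM in GFP low cells, against 26.7, 23.6 and 23.7 CPM in GFP high cells. For BAZ2B the log2 fold change was -0.14 ± 0.048 (adjusted p = 0.039). At 72 h BAZ2B held 22.1, 21.4 and 20.1 CPM in GFP low cells, against 25.6, 25.7 and 25.8 CPM in GFP high cells. BAZ2B had a log2 fold change of -0.28 ± 0.049 (adjusted p = 0.00014). The 72 h groups do not overlap in either BAZ2 gene. The BAZ2B call at 48 h was lost in 4 of 6 fits that left out 1 library, with adjusted p up to 0.311, by DESeq2, without a filter and under both other scalings. BAZ1B (0.057 ± 0.022) and RSF1 (0.058 ± 0.029) were called higher at 72 h only with the library set as a block, and BAZ1B was then also called lower at 48 h (-0.031).

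In the INO80 group the 3 motors rose at 24 h, while INO80C, RUVBL1 and RUVBL2 fell. EP400, the motor of the TIP60 acetyltransferase complex, averaged 207 ± 2.86 CPM in GFP low cells and 138 ± 1.88 CPM in GFP high cells (SD, n = 3 each, log2 fold change 0.58 ± 0.024, adjusted p = 5.69e-15), and INO80 averaged 107 ± 0.899 CPM in GFP low cells and 85.5 ± 0.669 CPM in GFP high cells (log2 fold change 0.33 ± 0.026, adjusted p = 3.79e-10). SRCAP, the motor that loads H2A.Z, averaged 17.2 ± 1.31 CPM in GFP low cells and 14.4 ± 1.55 CPM in GFP high cells (log2 fold change 0.25 ± 0.081, adjusted p = 0.0126). INO80C, a small subunit of the INO80 complex, held 7.75, 7.70 and 7.62 CPM in GFP low cells, against 11.9, 11.8 and 10.9 CPM in GFP high cells. For INO80C the log2 fold change was -0.58 ± 0.067 (adjusted p = 1.54e-07). RUVBL1, the hexameric AAA+ partner in INO80, SRCAP and TIP60 complexes, held 149, 147 and 143 CPM in GFP low cells, against 183, 183 and 187 CPM in GFP high cells. RUVBL1 had a log2 fold change of -0.33 ± 0.023 (adjusted p = 4.15e-11). RUVBL2, which joins it in the same ring, held 101, 102 and 113 CPM in GFP low cells, against 129, 130.1 and 139 CPM in GFP high cells. For RUVBL2 the log2 fold change was -0.34 ± 0.052 (adjusted p = 8.82e-06). The groups did not overlap in any of these 6 genes. INO80C showed the lowest log2 fold change of all called members. INO80B did not pass the test (-0.45 ± 0.33) and held 309 counts over all 18 libraries. With the trend on exon length removed, EP400 stood at 0.35, INO80 at 0.24, INO80C at -0.59, RUVBL1 at -0.43 and RUVBL2 at -0.26, all still called, and SRCAP at 0.035 (adjusted p = 0.734). The SRCAP call was also lost without the GFP low library of set 2 (0.18, adjusted p = 0.0982) and without the GFP high library of set 1 (0.17, adjusted p = 0.0729).

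At 48 h, 0 of the 7 tested INO80 group genes were called by edgeR, 0 by DESeq2 and 0 at an unadjusted p under 0.05, with log2 fold changes from -0.093 to 0.041. By edgeR 23.8% of all tested genes were called at that time. At 72 h, RUVBL1 was lower again, at 165, 168 and 167 CPM in GFP low cells, against 189.9, 183 and 186 CPM in GFP high cells (log2 fold change -0.16 ± 0.023, adjusted p = 2.19e-05), whereas RUVBL2 averaged 138 ± 5.13 CPM in GFP low cells and 138 ± 8.14 CPM in GFP high cells (0.00054 ± 0.051). INO80C held 10.3, 9.46 and 9.94 CPM in GFP low cells, against 11.4, 10.9 and 11.3 CPM in GFP high cells at 72 h, with no overlap, but missed the threshold (log2 fold change -0.18 ± 0.066, adjusted p = 0.0508), and was called lower with median-ratio scaling, with the length trend removed and with the library set as a block (block fit: adjusted p = 0.0119). The motors EP400 (-0.030 ± 0.024), INO80 (-0.0072 ± 0.027) and SRCAP (-0.021 ± 0.085) were not called at 72 h.

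NuRD moved in parts at 24 h. Of its 11 tested subunits other than the CHD motors, 7 were lower and 2 higher, with a median log2 fold change of -0.16. Over all tested genes, 28.5% were lower and 29.3% higher. The deacetylase HDAC2 held 259, 258 and 248 CPM in GFP low cells, against 339, 334 and 322 CPM in GFP high cells. HDAC2 had a log2 fold change of -0.38 ± 0.031 (adjusted p = 6.07e-10). HDAC1 held 249.6, 246 and 246 CPM in GFP low cells, against 305, 304 and 302 CPM in GFP high cells. For HDAC1 the log2 fold change was -0.30 ± 0.020 (adjusted p = 1.64e-11). The histone-binding WD40 subunit RBBP7 held 228, 222 and 225 CPM in GFP low cells, against 300.1, 290.4 and 289 CPM in GFP high cells. RBBP7 had a log2 fold change of -0.38 ± 0.023 (adjusted p = 4.3e-12). Its paralog RBBP4 held 483, 463 and 465 CPM in GFP low cells, against 565, 560.1 and 549.5 CPM in GFP high cells. For RBBP4 the log2 fold change was -0.25 ± 0.023 (adjusted p = 6.5e-09). In these 4 core subunits each GFP low library lay below each GFP high one. MBD2, which binds methylated DNA, averaged 119 ± 6.42 CPM in GFP low cells and 137 ± 4.10 CPM in GFP high cells (SD, n = 3 each, log2 fold change -0.20 ± 0.039, adjusted p = 0.000206), and MTA3, the MTA subunit known for working with BCL6 in B cells, 67.2 ± 0.333 CPM in GFP low cells and 74.5 ± 0.893 CPM in GFP high cells (log2 fold change -0.15 ± 0.025, adjusted p = 3.28e-05). The scaffold subunits MTA1 and MTA2 moved in opposite directions. MTA1 held 196, 199 and 209 CPM in GFP low cells, against 174, 178 and 186 CPM in GFP high cells. MTA1 had a log2 fold change of 0.17 ± 0.041 (adjusted p = 0.00121). MTA2 held 217, 211 and 230.5 CPM in GFP low cells, against 242, 239.7 and 254 CPM in GFP high cells. For MTA2 the log2 fold change was -0.16 ± 0.032 (adjusted p = 0.000156). GATAD2B was the other subunit that rose, at 143, 141 and 140.0 CPM in GFP low cells, against 126, 121 and 126 CPM in GFP high cells (log2 fold change 0.19 ± 0.027, adjusted p = 4.22e-06), while its paralog GATAD2A (-0.012 ± 0.036) and MBD3 (0.020 ± 0.072) did not pass the test.

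The NuRD motors differed from each other. CHD3 held 531, 515 and 551 CPM in GFP low cells, against 379, 383 and 401 CPM in GFP high cells at 24 h (log2 fold change 0.46 ± 0.030, adjusted p = 1.55e-11), without overlap. CHD4, the main NuRD motor of most tissues, held 62.6, 58.1 and 62.8 CPM in GFP low cells, against 62.4, 58.9 and 61.6 CPM in GFP high cells (log2 fold change 0.0065 ± 0.035, adjusted p = 0.889), and the groups overlapped. CHD5 averaged 1.17 ± 0.153 CPM in GFP low cells and 1.03 ± 0.141 CPM in GFP high cells and was not called between GFP levels at any of the 3 times by edgeR, by DESeq2 or at an unadjusted p under 0.05. In GFP low cells CHD5 was lower at 72 than at 24 h, with means of 0.570 and 1.17 CPM (log2 fold change -0.98 ± 0.27, adjusted p = 0.00394), a call lost without the unnumbered set (-0.73, adjusted p = 0.0838). With the trend on exon length removed at 24 h, CHD3 stayed higher (0.27) and CHD4 was called lower (-0.20, adjusted p = 4.4e-05). The same fit left 8 of the 11 other NuRD subunits lower and 0 higher, also at an unadjusted p under 0.05. In that fit 29.6% of all tested genes were lower and 27.0% higher. MTA1 (0.080, adjusted p = 0.0848) and GATAD2B (0.031, adjusted p = 0.337) lost their calls, and GATAD2A was called lower (-0.12). HDAC2 (-0.60), RBBP4 (-0.41), RBBP7 (-0.48) and MTA3 (-0.33) moved further from 0.

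CHD4 was lower in GFP low cells at the later times. It held 52.5, 53.1 and 51.6 CPM in GFP low cells, against 65.2, 62.8 and 63.2 CPM in GFP high cells at 48 h. CHD4 had a log2 fold change of -0.28 ± 0.035 (adjusted p = 3.33e-06). At 72 h CHD4 held 48.7, 45.1 and 48.8 CPM in GFP low cells, against 60.6, 61.9 and 60.8 CPM in GFP high cells. For CHD4 the log2 fold change was -0.36 ± 0.036 (adjusted p = 1.52e-07). The groups did not overlap at either time, and 72 h gave the lowest log2 fold change of a called member at that time. The difference between its GFP effects was called from 24 to 48 h (change -0.29 ± 0.050, adjusted p = 5.81e-05), but not with the trend on exon length removed (adjusted p = 0.227). CHD3 held 381, 374 and 400.1 CPM in GFP low cells, against 409, 402 and 416 CPM in GFP high cells at 48 h. CHD3 had a log2 fold change of -0.088 ± 0.030 (adjusted p = 0.0386). At 72 h CHD3 held 359.7, 352 and 371 CPM in GFP low cells, against 330.1, 324 and 341 CPM in GFP high cells (log2 fold change 0.12 ± 0.030, adjusted p = 0.00458), so it was lower at 48 h and higher at 72 h. The 48 h call of CHD3 was lost with the length trend removed (adjusted p = 0.0628), under both other scalings and in 4 of 6 fits that left out 1 library, with adjusted p up to 0.258.

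Of the 11 other NuRD subunits, 2 were higher and 1 lower at 48 h, when 10.6% of all tested genes were higher and 13.2% lower. At 72 h 1 was higher and 3 lower, against 12.9% and 13.5% of all tested genes. RBBP4 was higher at 48 h, at 617, 602 and 591 CPM in GFP low cells, against 575, 566 and 549 CPM in GFP high cells (log2 fold change 0.099 ± 0.023, adjusted p = 0.00302), and not called at 72 h (551, 559 and 536 CPM in GFP low cells, against 571, 569 and 554 CPM in GFP high cells, log2 fold change -0.041 ± 0.023, adjusted p = 0.214). RBBP7 was also higher at 48 h, at 317, 319 and 308 CPM in GFP low cells, against 294, 303 and 295 CPM in GFP high cells (log2 fold change 0.079 ± 0.023, adjusted p = 0.0139), and not called at 72 h (-0.0012 ± 0.023). Both histone-binding subunits thus were lower at 24 h and higher at 48 h, the RBBP7 call being lost without the unnumbered set or without set 1. GATAD2B was lower at 48 h, at 117, 112 and 115 CPM in GFP low cells, against 127, 125 and 123 CPM in GFP high cells. For GATAD2B the log2 fold change was -0.12 ± 0.027 (adjusted p = 0.00176). HDAC1 was lower at 72 h, at 296, 288 and 291 CPM in GFP low cells, against 339, 328 and 338 CPM in GFP high cells (log2 fold change -0.20 ± 0.020, adjusted p = 8.07e-08), without overlap. HDAC2 was lower at 72 h with overlapping libraries, at 338, 322 and 309 CPM in GFP low cells, against 350.0, 346 and 336 CPM in GFP high cells. HDAC2 had a log2 fold change of -0.090 ± 0.031 (adjusted p = 0.0354). The HDAC2 call at 72 h was lost with upper-quartile scaling and in 4 of 6 fits that left out 1 library, with adjusted p up to 0.183. MTA1 was higher (log2 fold change 0.18 ± 0.041, adjusted p = 0.00239) and MTA3 lower (log2 fold change -0.12 ± 0.025, adjusted p = 0.00136) at 72 h. The MTA1 call was lost without set 1, and those of MTA3 and CHD3 at 72 h without the unnumbered set. With the library set as a block, MBD2, HDAC1 and GATAD2A were also called lower at 48 h (-0.10, -0.054 and -0.053), MTA2, MBD3 and GATAD2A higher at 72 h (0.074, 0.14 and 0.047), and RBBP4 lower at 72 h (-0.042).

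Of the other 7 SNF2 motors, 5 rose at 24 h, against 29.3% of all tested genes. SMARCAL1, an annealing helicase that restarts stalled replication forks, held 34.9, 35.2 and 35.0 CPM in GFP low cells, against 24.2, 23.5 and 23.9 CPM in GFP high cells. For SMARCAL1 the log2 fold change was 0.55 ± 0.037 (adjusted p = 2.33e-11). It stayed higher at 48 h, at 27.5, 27.8 and 29.4 CPM in GFP low cells, against 22.7, 22.8 and 23.7 CPM in GFP high cells. SMARCAL1 had a log2 fold change of 0.29 ± 0.038 (adjusted p = 5.67e-06). At 72 h SMARCAL1 held 26.2, 25.7 and 25.2 CPM in GFP low cells, against 23.0, 23.3 and 23.9 CPM in GFP high cells. For SMARCAL1 the log2 fold change was 0.13 ± 0.039 (adjusted p = 0.014). The groups did not overlap at any time, and its 24 h value with the length trend removed was 0.54. The 72 h call was lost without the GFP low library of the unnumbered set (0.12, adjusted p = 0.0518), by DESeq2 and without a filter. ATRX, which deposits H3.3 with DAXX, averaged 228 ± 6.02 CPM in GFP low cells and 163 ± 5.78 CPM in GFP high cells at 24 h (SD, n = 3 each, log2 fold change 0.49 ± 0.032, adjusted p = 1.53e-11). ERCC6, the transcription-coupled repair motor also called CSB, averaged 33.1 ± 0.738 CPM in GFP low cells and 24.6 ± 1.52 CPM in GFP high cells (log2 fold change 0.43 ± 0.052, adjusted p = 2.63e-07). SMARCAD1, a motor of DNA end repair (0.17 ± 0.033), and HLTF, a translocase that is also a ubiquitin ligase (0.13 ± 0.033), rose as well. With the length trend removed, ATRX (0.23), ERCC6 (0.17) and SMARCAD1 (0.11) stayed higher, HLTF did not pass (0.079, adjusted p = 0.0765), CHD1L was called higher (0.32), and ZRANB3, another fork-remodelling motor, was called lower (-0.20). At 48 and 72 h, 0 of the other 6 were called by edgeR or DESeq2 (1 at an unadjusted p under 0.05 by edgeR, at 72 h), with log2 fold changes from -0.11 to 0.058. By edgeR 23.8% of all tested genes were called at 48 h and 26.4% at 72 h. With the library set as a block, HLTF was called lower at 48 h (-0.052) and ERCC6 at 72 h (-0.11).

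Over all families, 48 h held 5 members that were higher and 7 lower, while 23.8% of all tested genes were called, 10.6% higher and 13.2% lower. With the library set as a block, 5 were higher and 12 lower, against 35.1% of all tested genes, 15.4% higher and 19.7% lower. The 3 and 3 libraries did not overlap in 16 members, against 36.8% of all tested genes. At 72 h, 8 were higher and 9 lower, while 26.4% of all tested genes were called, 12.9% higher and 13.5% lower, and the libraries did not overlap in 21 members, against 38.8% of all. With the library set as a block the 72 h count was 26 members, 13 in each direction, against 36.7% of all tested genes, 18.5% higher and 18.2% lower. The motors held 2 higher and 4 lower at 48 h and 5 higher and 3 lower at 72 h, with median log2 fold changes of -0.016 and -0.030. The partner subunits held 3 higher and 3 lower at 48 h, and 3 higher and 6 lower at 72 h.

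The test of the change in the GFP difference between times separates 24 h from the later times. From 24 to 48 h the difference changed in 33 of 41 members, 9 upward and 24 downward, while 43.5% of all tested genes were called, 22.1% upward and 21.4% downward. Of the 20 motors, 16 went downward and 0 upward (0 upward also by DESeq2 and at an unadjusted p under 0.05), and 11 and 1 did with the length trend removed: CHD2 (-0.79 ± 0.041), CHD6 (-0.67 ± 0.047) and EP400 (-0.60 ± 0.034) had the largest changes, on the log2 scale. RBBP7 (0.46 ± 0.033), INO80C (0.51 ± 0.092) and HDAC2 (0.38 ± 0.044) went upward. From 24 to 72 h the counts were 9 upward and 23 downward, against 41.8% of all tested genes, 22.2% upward and 19.6% downward. From 48 to 72 h the difference changed in 6 members, against 9.02% of all tested genes, 5.19% upward and 3.83% downward: CHD3, BAZ2A and BPTF upward, and RUVBL1, HDAC1 and RBBP4 downward. With the library set as a block that count was 19, against 20.2% of all tested genes. It was 0 without the unnumbered set (edgeR, 14 members at an unadjusted p under 0.05) and 2 without set 1. Without the unnumbered set 378 genes of the whole series were called for this change, against 1486 with all libraries.

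Within each GFP level, 34 members changed between 24 and 48 h in GFP low cells and 9 in GFP high cells. In GFP low cells 9 were higher and 25 lower at 48 than at 24 h, against 50.8% of all tested genes, 25.7% higher and 25.1% lower, and 17 of the 20 motors were lower. CHD2 averaged 139, 91.9 and 102 CPM at 24, 48 and 72 h in GFP low cells, and EP400 207, 155 and 138 CPM. RBBP7 moved the other way, with means of 225, 314 and 306 CPM. In GFP high cells, 8 members were higher and 1 lower at 48 than at 24 h, against 20.6% of all tested genes, 10.6% higher and 9.97% lower, and 19 were called with the library set as a block, against 32.7% of all. CHD7 showed the largest called change there, with means of 171, 213 and 192 CPM. Between 48 and 72 h, in GFP low cells, 5 members were higher and 11 lower (26.4% of all tested genes, 13.9% higher and 12.5% lower), and 6 higher and 11 lower in GFP high cells (27.8%, 13.7% and 14.2%). The count of 16 in GFP low cells was 10 without the unnumbered set and 8 without set 1. Between 24 and 72 h, in GFP low cells, 9 were higher and 24 lower (57.1%, 29.6% and 27.5%), and 12 higher and 7 lower in GFP high cells (28.9%, 13.9% and 15.0%), which became 12 in all without the unnumbered set and 11 without set 1. The count of 9 in GFP high cells at 48 against 24 h was 5 without set 1.

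**Figure D3:**
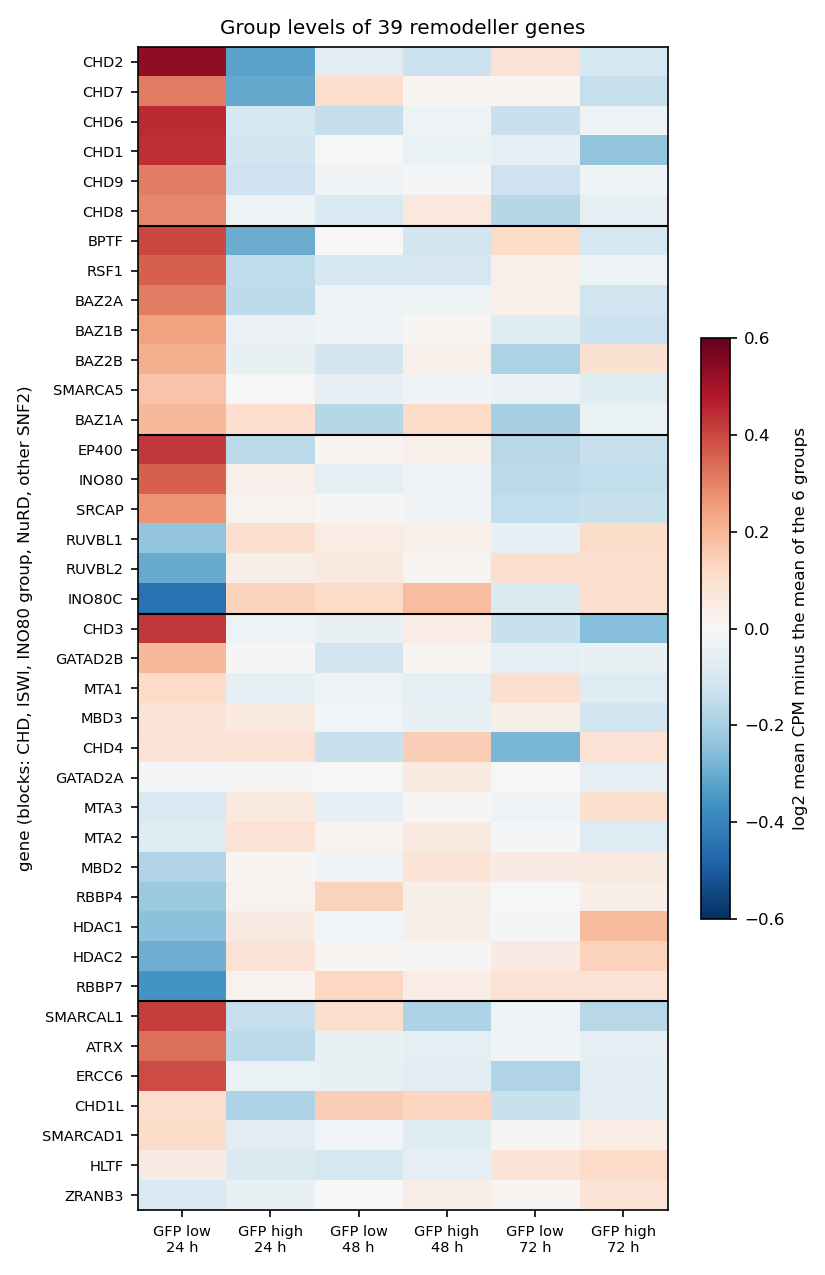
Mean level of 39 remodeller genes in each of 6 groups, as log2 mean CPM minus the mean of the 6 groups (colour, red above and blue below, n = 3 libraries a group), by family; INO80B and CHD5 are left out for low counts. The GFP low 24 h column stands apart from the other 5, with CHD2 at 139 CPM and EP400 at 207 CPM in red, and INO80C at 7.69 CPM and RBBP7 at 225 CPM in blue.

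Exon length moved with the fold changes at 24 h. The tested motors had a median summed exon length of 11864 bp and the partner subunits of 7416 bp. Over all tested genes in 10 bins of length, the median log2 fold change at 24 h ran between -0.14, in the bin of 1349 to 2229 bp, and 0.24, in the bin above 10292 bp that held 18 members. Over protein-coding genes of at least 1 CPM alone it ran further, between -0.45, in the bin of 207 to 2233 bp, and 0.24, in the bin from 11504 bp. Set against the median of their own bin, 18 of the 20 motors lay above it and 7 of the 21 partner subunits did, with median distances of 0.21 for motors and -0.15 for partner subunits. Beside bins of protein-coding genes of at least 1 CPM, 17 of the 20 motors and 8 of the 21 partner subunits lay above, with median distances of 0.22 and -0.10. No test is given of either class. At 48 h, 10 of the 20 motors and 10 of the 21 partner subunits lay above their bin median, and at 72 h 7 and 10 did. Across the 41 members, exon length and the 24 h log2 fold change had a Spearman correlation of 0.60, against 0.23 across all tested genes; genes are not independent replicates and share the libraries, and no test is given. With the length trend removed in the fit, 18 members were higher and 13 lower at 24 h, against 56.6% of all tested genes, 27.0% higher and 29.6% lower, with 14 motors higher and 2 lower, and 4 partner subunits higher and 11 lower.

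**Figure D4:**
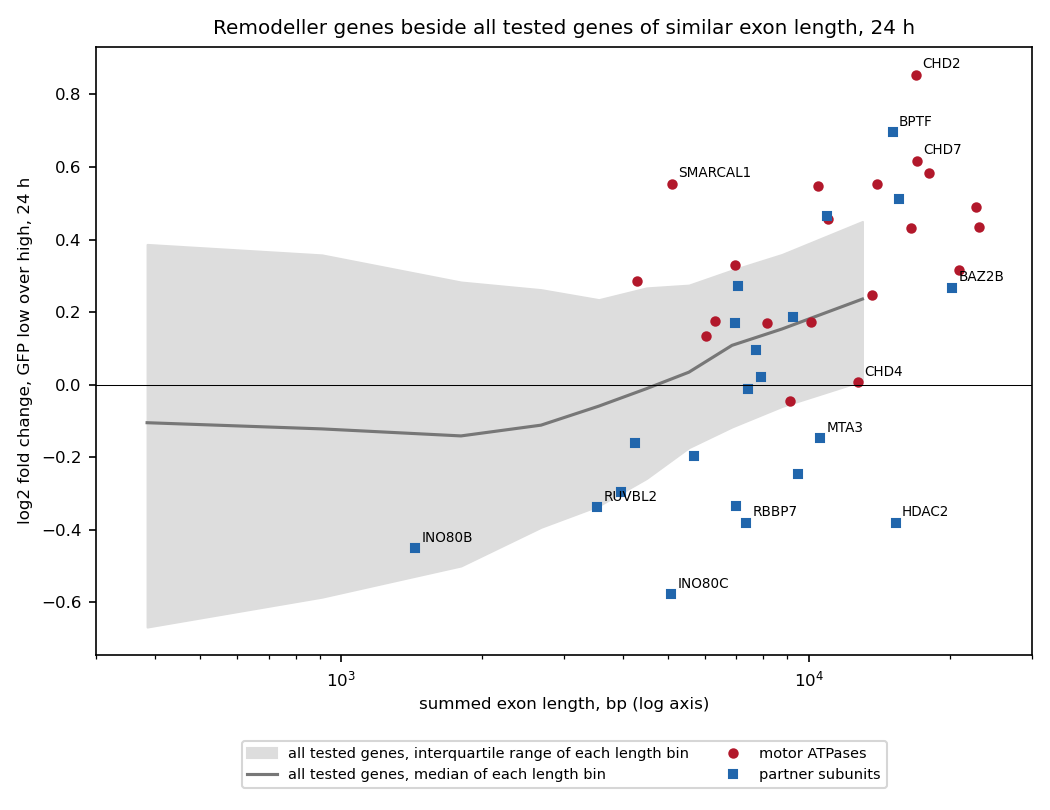
Log2 fold change of GFP low over GFP high cells at 24 h (vertical axis) against summed exon length in bp (horizontal log axis) for 20 motors (red circles) and 21 partner subunits (blue squares), with the median and interquartile range of all tested genes in 10 length bins (grey line and band). The line ends at the median length of the last bin, 13022 bp. Of the motors 18 lie above the median of their own length bin, and of the partner subunits 14 lie below theirs, such as HDAC2 at -0.38 and INO80C at -0.58.

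Paralog pairs were compared by the log2 ratio of their mRNA CPM in each library, not divided by exon length. The ratio does not measure the balance of proteins in a complex. The level of CHD4, used in CHD3 over CHD4, is subject to the limit of shared exons given above. With 3 against 3 libraries the smallest p of a 2-sided exact permutation test is 0.1, so no pair can pass 0.05. CHD3 over CHD4 was 3.12 ± 0.032 in GFP low and 2.67 ± 0.056 in GFP high cells at 24 h, and 2.93 ± 0.039 in GFP low and 2.44 ± 0.051 in GFP high cells at 72 h (SD, n = 3 each, exact p = 0.1 at both times). CHD7 over CHD8 was -0.77 ± 0.0074 in GFP low and -1.07 ± 0.0051 in GFP high cells at 24 h, -0.60 ± 0.0097 in GFP low and -0.84 ± 0.037 in GFP high cells at 48 h and -0.61 ± 0.020 in GFP low and -0.87 ± 0.024 in GFP high cells at 72 h (exact p = 0.1 each). The GFP low libraries lay above the GFP high ones at each of the 3 times. MTA1 over MTA2 was -0.12 ± 0.030 in GFP low and -0.46 ± 0.025 in GFP high cells at 24 h, and BAZ2A over BAZ2B was 3.46 ± 0.074 in GFP low and 3.03 ± 0.0029 in GFP high cells at 72 h (exact p = 0.1 each). RUVBL1 over RUVBL2, whose products share a ring, was 0.48 ± 0.12 in GFP low and 0.48 ± 0.044 in GFP high cells at 24 h (exact p = 1). At 72 h this ratio was 0.27 ± 0.045 in GFP low and 0.43 ± 0.11 in GFP high cells (exact p = 0.1). HDAC1 over HDAC2 was -0.044 ± 0.029 in GFP low and -0.13 ± 0.031 in GFP high cells at 24 h (exact p = 0.1). The order turned at 72 h, with -0.15 ± 0.054 in GFP low and -0.039 ± 0.044 in GFP high cells (exact p = 0.1).

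Further subunits and substrates of the same complexes, which are not among the 42, were counted from a separate list. Its partners also include 10 genes of the SNF2 group, motors such as BTAF1 and the ATRX partner DAXX. Of 46 listed partners 43 were tested, and at 24 h 16 were higher and 17 lower, against 57.9% of all tested genes called, with a median log2 fold change of -0.022. With the length trend removed 10 were higher and 19 lower: YY1, EPC1, EPC2, MBTD1, RAD54L2, SHPRH, TTF2 and BTAF1 lost their higher calls, ERCC6L2, RAD54B and HELLS were called lower, ACTR5, ACTR8 and MRGBP were called higher, and KAT5 lost its lower call. CECR2, SALL4 and PWWP2B did not pass the filter. The 10 genes of the SNF2 group held 5 higher and 2 lower, RAD54L and ERCC6L. With the length trend removed all higher calls of that group were lost, and RAD54L (-0.12) and ERCC6L (-0.14) stayed lower. The 15 subunits of the SRCAP and TIP60 complexes held 5 higher and 8 lower. TRRAP, the large scaffold of TIP60, averaged 598 ± 4.50 CPM in GFP low and 382 ± 4.27 CPM in GFP high cells (SD, n = 3 each, log2 fold change 0.65 ± 0.020, adjusted p = 6.06e-17), and VPS72, which carries H2A.Z in SRCAP, averaged 25.9 ± 0.438 CPM in GFP low and 37.5 ± 0.829 CPM in GFP high cells (log2 fold change -0.53 ± 0.046, adjusted p = 1.36e-09). POLE3, the histone-fold subunit of CHRAC and of DNA polymerase epsilon, averaged 128 ± 0.999 CPM in GFP low and 218 ± 1.88 CPM in GFP high cells (log2 fold change -0.77 ± 0.021, adjusted p = 6.91e-18). ZMYND8, a bromodomain partner of NuRD, averaged 103 ± 0.858 CPM in GFP low and 72.7 ± 1.20 CPM in GFP high cells (log2 fold change 0.51 ± 0.037, adjusted p = 7.58e-11), and INO80D rose as well (log2 fold change 0.38 ± 0.031, adjusted p = 6.33e-10). At 48 h 1 partner was higher, ZMYND8 (log2 fold change 0.22 ± 0.037, adjusted p = 8.89e-05), and 5 were lower, led by BTAF1, the motor that removes TBP from DNA (log2 fold change -0.30 ± 0.030, adjusted p = 1.36e-07), against 23.8% of all tested genes. With the library set as a block 4 were higher and 11 lower at 48 h, against 35.1% of all tested genes, with TRRAP, CDK2AP1 and INO80E added to the higher and UCHL5, EPC1, EPC2, SHPRH, YEATS4 and ERCC6L to the lower. At 72 h 5 were higher and 10 lower, against 26.4% of all tested genes, and 7 and 14 with the block, against 36.7%. By the fit without the block, ZMYND8 (log2 fold change 0.23 ± 0.037, adjusted p = 5.82e-05), MBTD1, a TIP60 subunit (log2 fold change 0.18 ± 0.034, adjusted p = 0.000333), and ADNP, a partner of CHD4 (log2 fold change 0.10 ± 0.025, adjusted p = 0.00388), were higher, and POLE3 (log2 fold change -0.16 ± 0.020, adjusted p = 2.59e-06), TRRAP (log2 fold change -0.12 ± 0.020, adjusted p = 9.75e-05) and VPS72 (log2 fold change -0.19 ± 0.045, adjusted p = 0.0036) lower.

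The histone variants that these motors handle fell at 24 h. Of the 4 variant genes and the H2A.Z chaperone ANP32E, 5 of 5 were lower at 24 h, 4 at 48 h and 0 at 72 h by edgeR, while 28.5%, 13.2% and 13.5% of all tested genes were lower. At 72 h 0 were lower by DESeq2 or at an unadjusted p under 0.05, and with the library set as a block H2AZ2 was called higher (log2 fold change 0.046 ± 0.016, adjusted p = 0.0275). At 48 h 3 were lower by DESeq2 and 3 with the length trend removed, H3-3B losing its call in both. With the length trend removed 4 were lower at 24 h. H2AZ1 averaged 303 ± 2.95 CPM in GFP low and 557 ± 11.2 CPM in GFP high cells at 24 h (log2 fold change -0.88 ± 0.019, adjusted p = 1.76e-19), and H3-3B, one of the genes for H3.3, averaged 203 ± 4.25 CPM in GFP low and 287 ± 0.151 CPM in GFP high cells (log2 fold change -0.50 ± 0.020, adjusted p = 2.98e-15). At 48 h, H2AZ1 averaged 533 ± 1.59 CPM in GFP low and 576 ± 9.15 CPM in GFP high cells (log2 fold change -0.11 ± 0.018, adjusted p = 9.15e-05), and ANP32E 312 ± 11.8 CPM in GFP low and 358 ± 6.90 CPM in GFP high cells (log2 fold change -0.20 ± 0.030, adjusted p = 3.58e-05). At 72 h, H2AZ1 was not called, at 638 ± 7.42 CPM in GFP low and 644 ± 4.64 CPM in GFP high cells (log2 fold change -0.013 ± 0.018, adjusted p = 0.665).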

How the data were processed

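RNA-seq of 18 Raji libraries was deposited as 1 table of whole-number counts per gene, which the authors made from the reads; the submitters' processing notes name FastQC, STAR, featureCounts, Subread, R 4.2.1 and hg38, with no role or order. These notes do not name the annotation release, the strand setting or the counting of multi-mapped reads. Per the file headers the table also holds a summed exon length in bases, used here for CPM per kb and for length trends. Of 60710 lines 60707 genes were read, and 3 broken lines, the entry of ANK2, were left out. Samples were grouped by the GFP level and time in their labels, and columns were assigned by name. Gene types and GC content came from GENCODE release 29, and exon overlaps from the exon coordinates deposited with the counts. Promoter windows came from RefSeq (GRCh38.p14, 250 bases before the start).

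Counts were fitted with edgeR 4.0.16 in R 4.3.3 (limma 3.58.1): filterByExpr, TMM, 6 group means over 18 libraries (12 residual degrees of freedom), quasi-likelihood F tests, 2-sided, and Benjamini-Hochberg adjustment over 16474 genes with a threshold of 0.05. A value after ± beside a log2 fold change is its standard error. The biological coefficient of variation was 3.49%. The fits were tested on simulated data. The alternatives were median-ratio and upper-quartile scaling, DESeq2 1.42.0, no filter, a mean of at least 1 CPM, only the groups compared, the library set as a block, an offset for the trend on log2 exon length (lowess span 0.3), the block with length and with length and GC trends, and leaving out each library and each library set. The column names carry the library set, and the sets pair the libraries: all 45 pairs of the same set had deviations from their group means that correlated (r 0.103 to 0.309), the 90 other pairs had a median r of -0.107, and all 18 libraries were closest to their own set. Libraries of 1 group differed by 1.97 to 4.61 times the chi-square of counting noise, more than sequencing 1 library again would give; whether libraries share an RNA sample or a culture is not labelled.

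The genes and lists were chosen with earlier results of these data known. Values per library are given for the 3 called genes furthest from 0 on each side of each GFP comparison (mean of at least 1 CPM), for paralogs called in opposite directions and for genes called in opposite directions at different times, and for others chosen after their values were seen; up to 3 listed partners in each direction are named by adjusted p. The counts of listed partners and histone variants under other settings, and the gene names they add or lose, were chosen after seeing the data. The summed level of 1 further marker list is not reported here.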

Additional observations from a re-analysis of the deposited data

Results flagged for a closer look

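The difference between GFP low and GFP high cells was itself different between times, by the edgeR test of that change, in 33 of 41 genes from 24 to 48 h, in 6 from 48 to 72 h and in 32 from 24 to 72 h. Over all tested genes, 43.5%, 9.02% and 41.8% were called for these intervals, in that order. The following values are the later log2 fold change minus the earlier one, and each is named because the direction of the difference turned between times or because it was 1 of the 6 from 48 to 72 h.

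Motors and ISWI partners that were higher at 24 h and lower later in GFP low cells moved downward. CHD6 changed by -0.67 from 24 to 48 h and by -0.66 from 24 to 72 h. CHD8 changed by -0.47 and -0.43 over the same intervals, BAZ1A by -0.38 and -0.25, and BAZ2B by -0.41 and -0.55. CHD3 changed by -0.54 from 24 to 48 h, by 0.21 from 48 to 72 h and by -0.33 from 24 to 72 h. The NuRD subunit GATAD2B changed by -0.31 from 24 to 48 h and by -0.20 from 24 to 72 h.

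The histone-binding subunits moved upward from 24 h. RBBP4 changed by 0.35 from 24 to 48 h, by -0.14 from 48 to 72 h and by 0.21 from 24 to 72 h. RBBP7 changed by 0.46 from 24 to 48 h and by 0.38 from 24 to 72 h.

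From 48 to 72 h, BAZ2A changed by 0.16 and BPTF by 0.11, while RUVBL1 changed by -0.17 and HDAC1 by -0.15. All 6 calls of this interval were lost without the unnumbered library set. The calls over the whole series then fell from 1486 to 378 genes.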

How the results depend on the processing

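Over the 12 comparisons the counts of called genes stayed within 1.5 times under the scaling, filter and DESeq2 alternatives, with only the groups compared and with the length trend removed alone. The paired fits, with the library set as a block, changed counts: at 48 h 19 of 41 genes were called with the block and the length trend removed and 19 with block, length and GC trends removed, against 12; at 72 h 26 were called with the block, against 17; between 24 and 48 h in GFP high cells 19, 16 and 15 under the same 3 block fits, against 9; and for the change of the GFP difference from 48 to 72 h 19, 20 and 20, against 6. The block alone also raised the called share of all tested genes, from 23.8% to 35.1% at 48 h and from 26.4% to 36.7% at 72 h. That share rose from 20.6% to 32.7% between 24 and 48 h in GFP high cells, and from 9.02% to 20.2% for the change from 48 to 72 h. Leaving out a library or a library set gave 32 to 35 called genes at 24 h (34), 8 to 12 at 48 h (12) and 12 to 17 at 72 h (17). It gave 5 to 11 between 24 and 48 h in GFP high cells (9), 0 to 8 for the change from 48 to 72 h (6), 8 to 16 between 48 and 72 h in GFP low cells (16), and 11 to 18 between 24 and 72 h in GFP high cells (19). Of 63 calls over the 3 GFP comparisons, 9 were lost without at least 1 single library. Signs turned in 8 results. At 24 h BAZ1A became -0.018 with the length trend removed and -0.020 with block and length, and CHD4 became -0.20, -0.20 and -0.22 with length, with block and length, and with block, length and GC. With block, length and GC, SRCAP became -0.030 and MTA1 -0.024 at 24 h, RUVBL2 became -0.060 at 72 h, and the change from 24 to 48 h became 0.035 for MTA1. MBD3 at 24 h became -0.090 with block and length and -0.23 with GC added, and the change from 24 to 48 h of GATAD2A became 0.072 and 0.11. The cause was not tested. Depth limits SMARCA1 (7 counts over 18 libraries), INO80B (309) and CHD5 (631): between GFP levels a difference was not detectable in INO80B and CHD5 at this depth, while CHD5 was called between 24 and 72 h in GFP low cells.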
